A study of Homo sapiens with 20 samples.

Results

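Contacts of poised enhancer fragments within chromosomes were compared between day 14 cells of the human naive-to-primed transition and the naive cells they came from. All contacts with both ends on the same chromosome were taken from the deposited score matrix, and a contact was counted as called in a state at a CHiCAGO interaction score of 5 or more. Of 182303 such contacts (766138 in the matrix, which also holds contacts between chromosomes), 37527 were called at day 14, in naive cells or in both. They came from 4 of the study's 20 libraries, 2 libraries of day 14 cells and 2 of naive cells, and the remaining libraries cover 8 other conditions. Both states were HNES1, a human embryonic stem cell line kept in the naive state, with no genetic change named in the labels. Day 14 cells had been moved from naive medium to N2B27 with XAV939 alone, a tankyrase inhibitor, and the labels call them primed. Naive cells were kept in N2B27 with PD0325901 (an inhibitor of MEK), human LIF, Gö6983 (an inhibitor of protein kinase C) and XAV939, so both states shared the basal medium and XAV939. The naive cells were maintained on irradiated mouse feeder cells and passaged once without feeders before the transition. The other conditions used below were days 1, 3, 5, 7 and 10 of the same transition, H9 (an established primed embryonic stem cell line grown in mTeSR-E8 medium), and neuroectoderm (NE) and definitive endoderm (DE) made from day 14 HNES1 cells. The assay gives no RNA, so the naive and primed labels could not be checked against marker genes.

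Poised enhancers are regulatory elements that are marked but inactive in pluripotent cells, often within Polycomb domains, and they lie near genes of later development. Naive cells resemble the epiblast before implantation and primed cells the epiblast after it. Primed cells are known for the broad Polycomb marks over developmental gene clusters, and Polycomb-bound regions can meet over long distances in the nucleus. In capture Hi-C a bait is a captured restriction fragment, here with a median length of 617 bp, and the other end is the fragment or group of fragments ligated to it, with a median length of 5.26 kb among these contacts. The CHiCAGO score comes from a p-value, log-transformed after weighting, and sets the reads of a pair against those expected at its distance. The file gave 1 score per condition that pooled both libraries, so replicate spread could not be measured and the states were not tested against each other, and 95% Wilson intervals cover counting error only. Read depth per library was unknown. Contacts of 1 bait, and of neighbouring baits, are not independent.

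Sequences of promoters at the other ends are shown for genes whose outermost annotated start site gained or lost most contacts there, since these are the regions met by the baits. They are the 250 bases before the start in RefSeq (GRCh38.p14), 5′ to 3′ on the strand of the gene, with CpG dinucleotides in capitals. With the start at the other end, NKX2-1 had 12 contacts at day 14 and 0 in naive cells, HOXA2 10 and 1, SIX6 9 and 0 and HOXA10 7 and 0, day 14 first in each. CENPF and NES, which encodes the neural stem cell filament nestin, each had 0 at day 14 and 3 in naive cells. The windows are chr14:36520233-36520482 (minus strand) for NKX2-1, chr7:27102684-27102933 (minus strand) for HOXA2, chr14:60508896-60509145 (plus strand) for SIX6, chr7:27179862-27180111 (minus strand) for HOXA10, chr1:214602945-214603194 (plus strand) for CENPF and chr1:156677408-156677657 (minus strand) for NES.
NKX2-1: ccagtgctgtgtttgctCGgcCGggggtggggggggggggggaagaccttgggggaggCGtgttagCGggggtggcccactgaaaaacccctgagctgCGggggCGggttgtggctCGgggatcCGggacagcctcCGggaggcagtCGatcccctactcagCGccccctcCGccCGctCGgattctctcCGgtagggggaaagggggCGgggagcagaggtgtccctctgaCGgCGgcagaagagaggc
HOXA2: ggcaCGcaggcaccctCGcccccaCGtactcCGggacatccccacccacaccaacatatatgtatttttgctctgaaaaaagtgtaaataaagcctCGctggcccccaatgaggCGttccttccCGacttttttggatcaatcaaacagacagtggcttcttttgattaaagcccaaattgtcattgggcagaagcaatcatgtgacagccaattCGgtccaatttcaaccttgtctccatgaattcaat
SIX6: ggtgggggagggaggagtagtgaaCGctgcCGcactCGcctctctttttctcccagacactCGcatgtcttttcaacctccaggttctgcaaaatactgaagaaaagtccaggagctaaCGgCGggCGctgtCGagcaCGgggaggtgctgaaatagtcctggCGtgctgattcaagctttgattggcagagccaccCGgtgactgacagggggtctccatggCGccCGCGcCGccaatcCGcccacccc
HOXA10: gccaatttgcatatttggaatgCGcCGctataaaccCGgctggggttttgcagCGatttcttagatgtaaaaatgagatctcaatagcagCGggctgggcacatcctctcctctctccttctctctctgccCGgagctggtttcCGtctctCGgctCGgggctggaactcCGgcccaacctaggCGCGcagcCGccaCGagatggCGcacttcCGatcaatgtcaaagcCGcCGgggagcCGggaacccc
CENPF: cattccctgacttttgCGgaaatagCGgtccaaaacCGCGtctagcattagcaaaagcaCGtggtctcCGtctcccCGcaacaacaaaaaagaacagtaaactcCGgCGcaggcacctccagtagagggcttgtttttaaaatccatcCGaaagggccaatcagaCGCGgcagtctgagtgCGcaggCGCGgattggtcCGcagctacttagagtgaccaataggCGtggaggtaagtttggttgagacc
NES: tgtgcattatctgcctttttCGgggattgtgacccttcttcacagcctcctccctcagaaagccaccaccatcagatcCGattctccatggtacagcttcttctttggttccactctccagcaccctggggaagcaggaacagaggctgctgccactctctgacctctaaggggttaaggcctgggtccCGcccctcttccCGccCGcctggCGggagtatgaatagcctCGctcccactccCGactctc

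CpG numbers in these windows were 18 for NKX2-1, 8 for HOXA2, 16 for SIX6 and 19 for HOXA10, against 17 for CENPF and 8 for NES. Over all 22106 protein-coding promoters the median was 16.0. The 1132 promoters with more contacts at day 14 had a median of 15.0 and the 737 with fewer one of 14.0. With any change counted, the sets therefore had nearly the same median, close to that of all promoters. For changes of 2 or more contacts the medians lay further apart and below that of all promoters. They were 13.0 for 155 promoters with more (quartiles 5.00 and 23.0) and 8.00 for 63 with fewer (3.50 and 19.5). GATC, the site of the DpnII enzyme that cuts the chromatin in this assay, was found (on both strands, being its own complement) in 36.6% of promoters with more contacts (33.8 to 39.4), 35.4% of those with fewer (32.0 to 38.9) and 34.3% of all promoters. CCAAT, on either strand, was found in 31.6% of promoters with more, 35.3% of those with fewer and 32.7% of all. For changes of 2 or more contacts the order was the other way. CCAAT was then found in 35.5% with more (28.4 to 43.3) and 25.4% with fewer (16.3 to 37.3), intervals that overlap. These are descriptions of letters, not of bound sites.

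Cells at day 14 had 20498 called contacts and naive cells 18272, with depth unknown for both. Over the other conditions the number lay between 18327 at day 1 and 32672 in NE. Contacts called at day 14 and not in naive cells (gained) numbered 19255, or 10.6% of the contacts within chromosomes. Those called in naive cells and not at day 14 (lost) numbered 17029, or 9.34%, and 1243 (0.682%) were called in both (kept). Kept contacts were 6.06% of day 14 calls (5.75 to 6.40) and 6.80% of naive calls (6.45 to 7.18). Low sharing was not particular to this pair of states. Day 14 shared 7.27% of its calls with day 10 (6.92 to 7.63) and 8.60% with H9 (8.22 to 8.99), while naive cells shared 6.54% of their calls with day 1 (6.19 to 6.91). As shares of the other lists, these were 7.95% of day 10 calls, 7.41% of H9 calls and 6.52% of day 1 calls.

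Most gained and lost contacts had scores just above the threshold in one state and low scores in the other. Gained contacts had a median score of 5.68 at day 14 and 0.934 in naive cells, and lost contacts 0.910 at day 14 and 5.66 in naive cells. Of the gained contacts 62.0% scored between 5 and 6 at day 14, and 88.1% scored under 3 in naive cells. Of the lost contacts 63.5% scored between 5 and 6 in naive cells, and 87.9% scored under 3 at day 14. Only 4.42% of gained and 4.49% of lost contacts reached 4 in the state that lacked the call, so contacts lying just below the threshold made up a small part of either class. Kept contacts had median scores of 6.49 at day 14 and 6.44 in naive cells, and 631 of them scored higher at day 14 and 611 higher in naive cells. At a score of 10 or more 420 contacts were called at day 14 and 335 in naive cells.

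The ratio of day 14 to naive calls was highest at short distances. Under 50 kb there were 1110 calls at day 14 and 661 in naive cells, 1.68 times as many. The ratio was 1.22 from 50 to 100 kb and 1.15 from 100 to 250 kb (8588 calls at day 14 and 7483 in naive cells). It was 1.04 from 250 to 500 kb and 0.973 from 500 kb to 1 Mb, where day 14 had 1450 calls and naive cells 1491. When the same number of top-scoring rows, 18272, was taken from each state, the ratio under 50 kb was 1.44 and that from 250 to 500 kb turned to 0.911, with 0.842 from 500 kb to 1 Mb. So the ordering by distance held with equal numbers, while the side of 1 on which the 250 to 500 kb class lay did not. Median distances were 212 kb for gained, 229 kb for lost and 169 kb for kept contacts.

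**Figure D1:**
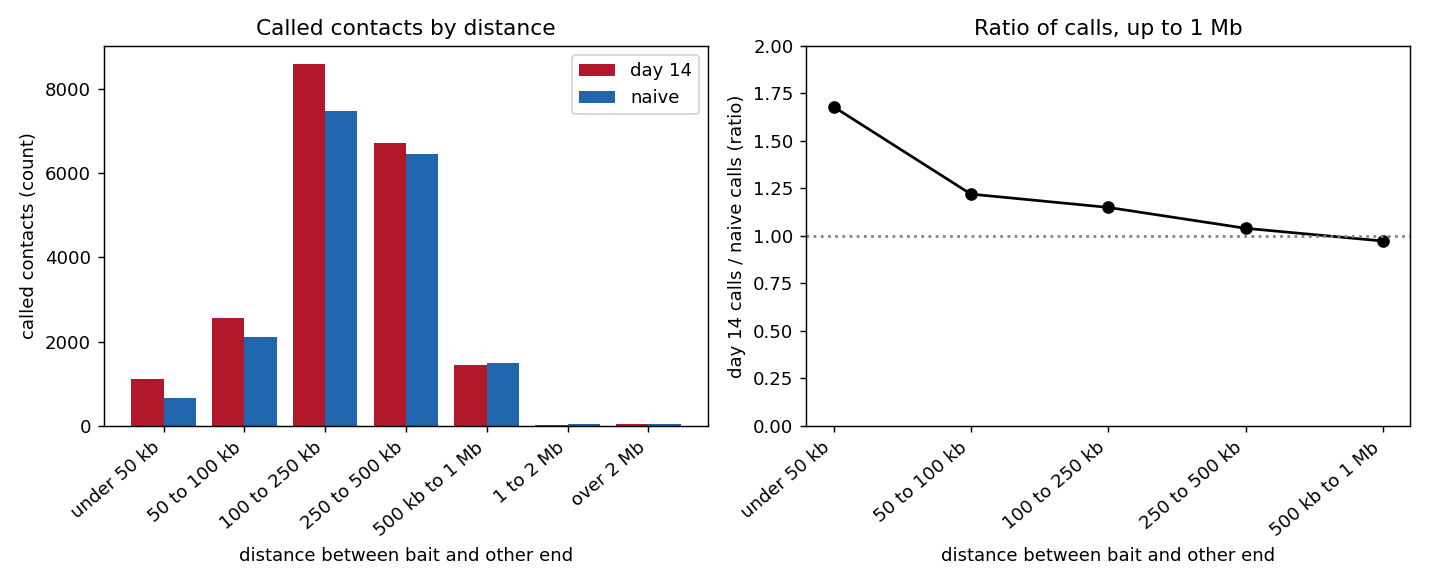
The left panel gives the number of called contacts (y axis) in each class of distance between bait and other end (x axis), with day 14 in red and naive in blue. The right panel gives the day 14 count divided by the naive count for the classes up to 1 Mb, and the ratio is 1.68 under 50 kb and 0.973 from 500 kb to 1 Mb.

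Chromosome 19 had the highest ratio, with 362 calls at day 14 and 230 in naive cells (1.57), followed by chromosome 17 (1.24) and chromosome 10 (1.23). Chromosome 22 was the lowest, with 200 calls at day 14 and 231 in naive cells (0.866), and chromosome 21 had a ratio of 0.904. With equal numbers of rows chromosome 19 was at 1.44 and chromosome 22 at 0.797. The kept class held 27 contacts over 2 Mb, of which 17 lay on chromosome 16 and 9 on chromosome 1. The highest kept scores, up to 251 at day 14 and 138 in naive cells, belonged to this small class, with contacts of 11.8 Mb between 2 regions that flank the centromere of chromosome 16. These long contacts are described no further.

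Among windows of 1 Mb, the 6 with the largest gains included 3 that hold HOX genes. These 6 windows hold 48 to 106 baits each, and the counts are per window, not per bait. Among 2317 windows with a call, 31 had at least 20 more contacts at day 14 and 0 had at least 20 fewer. With equal numbers of rows these were 22 and 2. The window with HOXC genes on chromosome 12 (54 to 55 Mb) had 254 contacts at day 14 and 150 in naive cells. It also holds other genes, and the largest change among them was 21 contacts more for ZNF385A. HOXC5, HOXC6 and NFE2 followed with 7 more each, so the gain of this window is not that of the HOXC cluster alone. The HOXA window on chromosome 7 (27 to 28 Mb) had 149 at day 14 and 88 in naive cells, and the HOXB window on chromosome 17 (48 to 49 Mb) had 149 and 110 in the same order. HOX genes encode the transcription factors that set position along the body axis. The window of TMEM171 and FOXD1, a forkhead factor of kidney stroma and retina, on chromosome 5 (73 to 74 Mb) had 96 contacts at day 14 and 35 in naive cells, and 0 of them were kept. Windows of FOXE3 and FOXD2 on chromosome 1 (47 to 48 Mb) and of FOXP4 and TFEB on chromosome 6 (41 to 42 Mb) had 104 and 87 contacts at day 14, against 62 and 47 in naive cells.

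The windows with the largest losses were smaller. On chromosome 12 (12 to 13 Mb), which holds CDKN1B, encoding the cell cycle inhibitor p27, and GPR19, there were 21 contacts at day 14 and 40 in naive cells. On chromosome 3 (62 to 63 Mb) there were 5 at day 14 and 24 in naive cells. Of its genes CEP15 had 0 linked contacts at day 14 and 2 in naive cells, while CADPS and FEZF2 had 0 in both. The window of HTRA4 and PLEKHA2 on chromosome 8 had 25 at day 14 and 43 in naive cells.

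**Figure D2:**
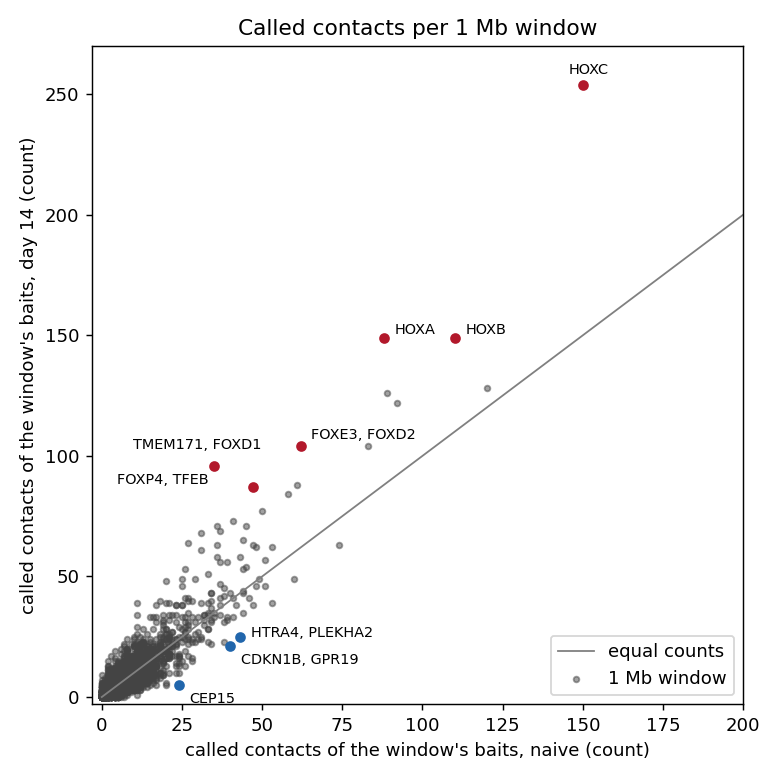
Each point is a window of 1 Mb, with the called contacts of its baits in naive cells on the x axis and at day 14 on the y axis, with equal counts on the line, the named windows of largest gain in red and some of largest loss in blue. The window labelled HOXC, which also holds ZNF385A, lies at 254 contacts at day 14 and 150 in naive cells. The CEP15 window lies at 5 at day 14 and 24 in naive cells.

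Of 25252 baits with a contact within chromosomes, 7124 (28.2%) had more calls at day 14 and 6209 (24.6%) had fewer. This direction rested on the larger number of calls at day 14, since with equal numbers of rows 6419 baits had more and 6621 had fewer. Changes of 5 or more contacts were more often gains at either setting, with 191 baits having more and 90 fewer by the threshold of 5, and 137 more and 99 fewer with equal numbers. Of 6095 baits called in both states, 5177 kept no contact. The largest gain was at a bait inside FOXP4 (chr6:41592143-41593603), with 18 contacts at day 14 and 2 in naive cells, whose gained other ends held TFEB, FRS3, PRICKLE4 and PGC. Day 5 gave this bait 21 contacts, day 3 gave 7, day 7 gave 5, day 1 gave 1 and day 10 gave 0, while H9 had 12, NE 14 and DE 11. A bait near LYPD6 on chromosome 2 had 16 contacts at day 14 and 3 in naive cells, and a bait inside DMBX1, a homeobox gene of the midbrain, had 14 at day 14 and 2 in naive cells. The largest losses were at a bait inside CUX2, a factor of upper-layer cortical neurons, with 9 contacts at day 14 and 21 in naive cells, and at a bait inside MERTK, a receptor tyrosine kinase for dying cells, with 0 at day 14 and 11 in naive cells.

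Genes were assigned to contacts by their annotated ends, which had to lie in the bait or the other end after widening by 1 kb, and 11287 protein-coding genes were linked. More contacts at day 14 were counted for 2777 genes (24.6%) and fewer for 2140 (19.0%), with a median difference of 0. The 291 linked genes of 15 transcription factor families had another balance, with more contacts for 132 (45.4%, 39.7 to 51.1) and fewer for 61 (21.0%, 16.7 to 26.0). They had a mean of 2.89 contacts per gene at day 14 and 1.48 in naive cells, and the other 10996 genes 0.660 at day 14 and 0.563 in naive cells. Without the 39 HOX genes, 38.9% of the other 252 had more (33.1 to 45.0) and 23.0% fewer (18.2 to 28.6), with means of 2.05 at day 14 and 1.23 in naive cells. With equal numbers of rows 123 of the 291 had more and 66 fewer. Over all 11287 linked genes 2498 then had more and 2268 fewer, closer to balance than the 2777 and 2140 above. At changes of 8 or more contacts, 18 of the 26 genes with more contacts and 0 of the 7 with fewer were in these families. Equal numbers of rows gave 12 of 19 and 0 of 8.

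The HOX genes had the largest difference of the 22 lists. All 39 were linked, 34 had more contacts at day 14 and 3 had fewer, with a mean of 8.33 per gene at day 14 and 3.10 in naive cells and a median difference of 4.00. The count ran from 31 to 36 more and 3 to 5 fewer under equal numbers, removal of contacts between baits, single counting of pairs and the other links by gene ends, and was 16 against 2 of the 20 HOX genes that had a start site in the RefSeq table used, when a link required that site. At a score of 10 or more it was 6 against 1. HOX genes lie close together and share contacts, so they are not 39 independent observations.

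The NK and the other ANTP homeobox genes also had more contacts at day 14 more often than fewer. NK homeobox genes had more contacts at day 14 for 18 and fewer for 5 of 32, and the ANTP homeobox genes outside HOX and NK for 14 and 2 of 22 (4.14 per gene at day 14 and 1.95 in naive cells). In both lists genes with more contacts outnumbered those with fewer under each other setting run, except for the 1 against 1 of the ANTP list at a score of 10. Basic helix-loop-helix (bHLH) genes, among them the proneural and muscle factors, had 19 with more and 11 with fewer of 46, and 0 against 2 at a score of 10.

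The remaining lists had smaller differences or few genes, and no test separates them from those above. The forkhead genes had 8 with more and 7 with fewer of 20, the paired-type homeobox genes 9 and 9 of 24, the SOX genes 3 and 4 of 14, the POU genes 4 and 4 of 12 and the developmental zinc finger genes 7 and 8 of 29. The GATA genes had 1 with more and 3 with fewer of 5. The PAX genes had 3 with more and 2 with fewer of 9, the TALE homeobox genes 3 and 1 of 12, the LIM homeobox genes 3 and 1 of 11 and the T-box genes 3 and 0 of 11. Several of these counts depended on the gene link. With the link widened by 5 kb they were 8 and 1 of 14 T-box and 8 and 3 of 12 LIM genes, more first. TALE genes then had 8 and 1 of 12, PAX genes 7 and 2 of 9 and paired-type genes 13 and 8 of 25. GATA genes had 3 and 2 of 5, beside 4047 and 3165 of 14146 linked genes in all. With no widening they were 2 and 0 of 8 T-box and 0 and 3 of 8 LIM genes. TALE genes then had 4 and 1 of 12, PAX genes 2 and 2 of 9 and paired-type genes 3 and 5 of 17. GATA genes had 3 and 1 of 5, beside 1812 and 1350 of 9071 linked genes in all. The T-box genes had 0 with more and 1 with fewer at a score of 10. Among signalling genes, ligands had 18 with more and 10 with fewer of 48, a balance like that of the bHLH genes. Receptors and antagonists had 10 and 12 of 40, and 16 and 12 of the 44 linked with 5 kb. Genes of the Polycomb complexes had 3 with more and 4 with fewer of 21 (8 and 6 of the 24 linked with 5 kb).

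Few pluripotency genes were linked, and their lists differed. Means per gene were 1.20 at day 14 and 1.00 in naive cells for the naive list, 1.86 and 1.00 for the primed list and 0 and 0.600 for the general list, beside 0.718 and 0.587 over all linked genes, day 14 first in each. FZD7, a WNT receptor in the primed list, held 10 of that list's 13 contacts at day 14 and 4 of its 7 in naive cells. The naive list had 2 with more and 2 with fewer of 5 linked genes, the primed list 3 and 1 of 7, the general list 0 and 3 of 5, and the housekeeping list 0 and 2 of 9. TFCP2L1, a transcription factor of the naive state, had 3 contacts at day 14 and 0 in naive cells, and KLF4, of the same list, 0 at day 14 and 2 in naive cells. NANOG, POU5F1 and PRDM14 each had 0 contacts at day 14 and 1 in naive cells, with naive scores of 7.36, 6.17 and 9.30 and day 14 scores of 0, 2.30 and 2.30. DNMT3L, a cofactor of DNA methylation, had 1 contact, of score 4.60 at day 14 and 13.3 in naive cells.

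**Figure D3:**
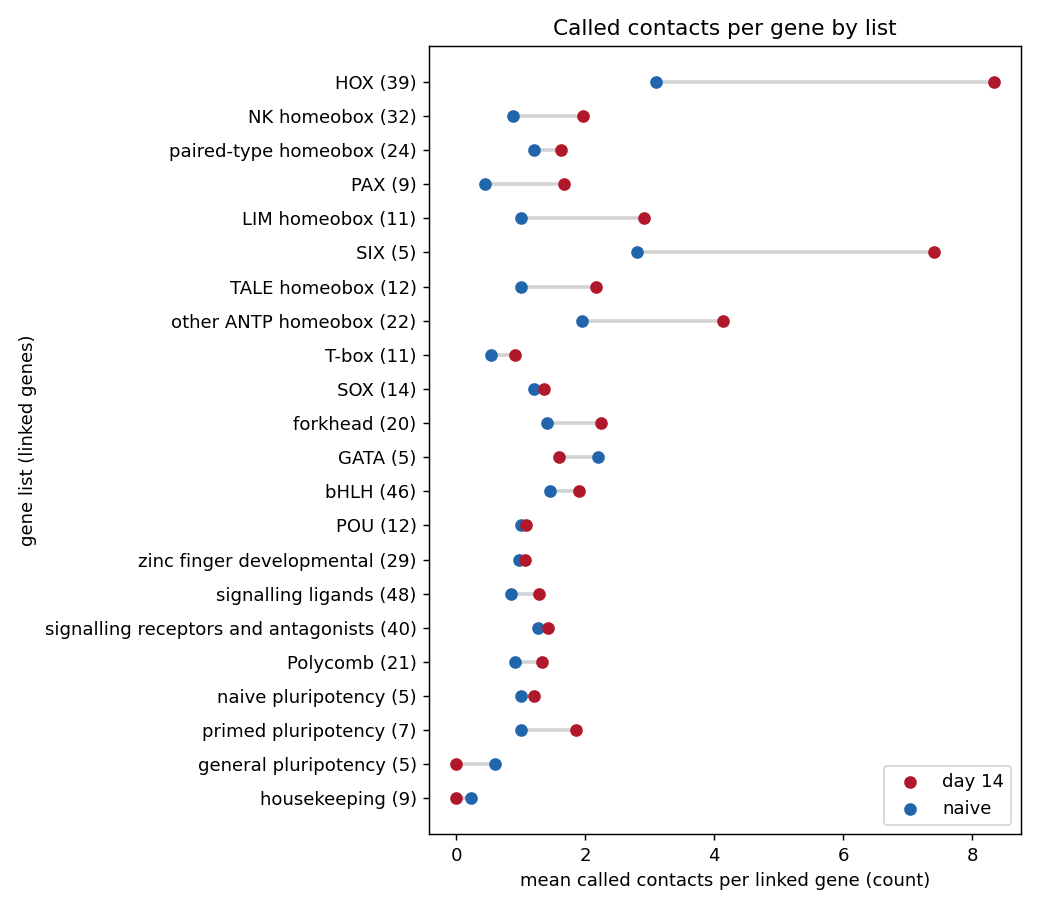
For each of the 22 gene lists (y axis, with the number of linked genes), the mean number of called contacts per gene (x axis) is given at day 14 in red and in naive cells in blue. HOX genes are at 8.33 at day 14 and 3.10 in naive cells, and the GATA, general pluripotency and housekeeping lists are the ones with the lower mean at day 14.

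Single genes showed the gains as groups of contacts with common partners. NKX2-1, a homeobox factor of lung, thyroid and forebrain on chromosome 14, had 12 contacts at day 14 and 0 in naive cells, each reaching the gene as other end. They came from 10 baits, and 9 of the 12 contacts led to within 10 kb of PAX9, a paired-box factor of pharyngeal pouches and teeth. Scores of the 12 ran from 5.01 to 12.9 at day 14 (median 6.62) and from 0 to 2.75 in naive cells (median 0.780), so the states did not overlap, as the classes require. The strongest joined chr14:36661411-36663056 to the start of NKX2-1 over 139 kb, with a score of 12.9 at day 14 and 1.18 in naive cells, but 0.937 in H9.

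SIX6, a factor of eye and pituitary, had 20 contacts at day 14 and 2 in naive cells. Scores of the 20 gained contacts ran from 5.07 to 10.6 at day 14 and from 0 to 4.20 in naive cells. OTP, a factor of hypothalamic neurons, had 14 contacts at day 14 and 1 in naive cells, over 212 to 429 kb. Its count was already 9 at day 1 and highest at day 3 with 30, and was 11 at day 10, 18 in H9 and 3 each in NE and DE. ISL1, a LIM homeobox factor of motor neurons and heart progenitors, had 23 at day 14 and 5 in naive cells, 2 of them kept. CDX2, a caudal factor of trophectoderm and gut, had 10 at day 14 and 2 in naive cells, and its gained contacts included 4 near GSX1 and 2 near PDX1, the other ParaHox genes beside it. NKX2-2, a factor of ventral neural tube and pancreas, had 10 at day 14 and 2 in naive cells, with 3 gained contacts near its paralogue NKX2-4, the strongest at 13.7 at day 14.

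In the HOXA cluster, HOXA3 had 19 contacts at day 14 and 1 in naive cells, HOXA10 19 and 3 and HOXA2 18 and 4, day 14 first in each. Of the 19 gained contacts of HOXA10, 11 led to HOXA3 and 4 to EVX1, a homeobox gene that borders the cluster. EVX1 itself had 9 contacts at day 14 and 2 in naive cells. ZNF385A, a zinc finger gene beside the HOXC cluster, had the most contacts of the genes with large gains, 31 at day 14 and 10 in naive cells with 4 kept, and 27 at day 1.

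**Figure D4:**
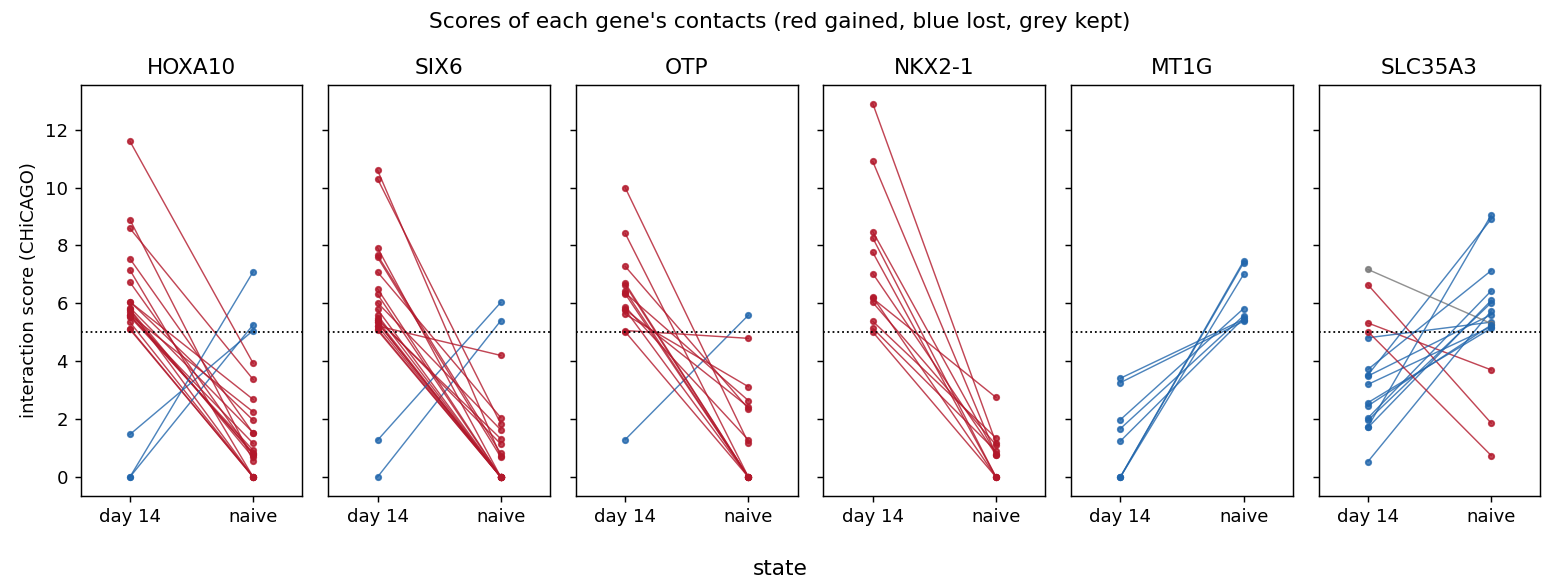
Each line is a contact of the named gene that was called in at least 1 of the states, with its score (y axis) at day 14 on the left and in naive cells on the right, and the dotted line marks the threshold of 5 (gained red, lost blue, kept grey). The 12 contacts of NKX2-1 lie between 5.01 and 12.9 at day 14, and the 8 of MT1G between 5.38 and 7.46 in naive cells.

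Genes with the largest losses mostly rested on few baits. Among the 10 genes with the largest loss, lost contacts came from 1 to 5 baits and from 1 or 2 baits in 7 of them, while among the 10 with the largest gain, gained contacts came from 2 to 14 baits and from 2 baits or fewer in 1 of them. MT1G, which encodes a metal-binding metallothionein, had 0 contacts at day 14 and 8 in naive cells, from 5 baits, 2 of the contacts near MT2A of the same cluster. Its scores ran from 0 to 3.41 at day 14 and from 5.38 to 7.46 in naive cells. SLC35A3, a Golgi sugar transporter, had 4 contacts at day 14 and 13 in naive cells, all from 1 bait at its start, and the 12 lost ones scored 0.534 to 4.81 at day 14 and 5.14 to 9.05 in naive cells. This gene had 18 contacts at day 5 and 4 in H9. PLEKHA2 and HTRA4, neighbours on chromosome 8, shared their contacts, 5 at day 14 and 14 in naive cells each. ACTR1A and SUFU, neighbours on chromosome 10, had 3 at day 14 and 11 in naive cells, and 3 and 10. Their adjoining ends lie within 1 kb of each other and their contacts were largely the same, so these are not separate losses. SUFU is an inhibitor of hedgehog signalling. SMYD2, a lysine methyltransferase, had 2 at day 14 and 9 in naive cells, with 3 lost contacts leading to CENPF, a kinetochore gene, whose scores were 0 at day 14 and 6.76 to 8.70 in naive cells.

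Genes of the transcription factor families stood at the other end of 250 gained contacts (1.30%, 1.15 to 1.47), 63 lost ones (0.370%, 0.289 to 0.473) and 15 kept ones (1.21%, 0.733 to 1.98). The 250 came from 208 baits and 125 other ends and led to 98 genes, and 101 of them led to HOX genes, as against 24 of the lost. Any protein-coding gene stood at the other end of 13.0% of gained, 10.5% of lost and 15.8% of kept contacts.

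The other 8 conditions, which the classes did not use, gave a separate reading of the same contacts. Of all gained contacts 7.06% were called in H9 (6.70 to 7.43), and of the lost 5.24% (4.92 to 5.59). At day 1, a day after leaving the naive medium, the shares were 4.82% of gained (4.53 to 5.13) and 4.70% of lost (4.40 to 5.03), intervals that overlap. In NE they were 9.16% of gained and 7.67% of lost, and in DE 8.12% and 6.60%, conditions with more calls in all. Kept contacts were called far more often, 31.7% at day 1 and 32.4% in H9. Called in none of the 8 were 72.0% of gained contacts (71.3 to 72.6), 76.1% of lost (75.5 to 76.7) and 23.3% of kept (21.0 to 25.7).

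Gained contacts with a transcription factor gene at the other end were called in H9 at a higher share. Of the 250, 60 were called in H9 (24.0%, 19.1 to 29.7), against 7.06% of all gained contacts, and of the 63 lost ones 6 (9.52%, 4.44 to 19.3). The 250 spanned a median of 124 kb and the 63 one of 186 kb, against 212 kb for all gained contacts. Of all gained contacts under 100 kb 10.4% were called in H9, and of those of 500 kb or more 4.08%. The part that distance plays in these shares was not tested. At day 1 the shares were 3.20% of the gained (1.63 to 6.19) and 6.35% of the lost (2.50 to 15.2), and at day 10 7.20% (4.60 to 11.1) and 3.17% (0.875 to 10.9). Without the HOX genes 23.5% of 149 gained contacts were called in H9 (17.4 to 30.9) and 2.56% of 39 lost ones (0.454 to 13.2). For HOX genes alone the shares were 24.8% of 101 gained and 20.8% of 24 lost. The 60 included 7 contacts each of HOXA2 and HOXA3, 4 of NKX2-2 and 3 each of ISL1, MEIS2, PDX1, EVX1, HOXB3 and HOXB5. A contact counted for each gene at its other end, so the numbers of neighbouring genes can overlap. In NE 9.60% of the 250 gained contacts were called and in DE 12.4%, so the share in H9 was the highest of the 8 conditions, although NE and DE had more calls in all. At a score of 10 or more in each condition, 2 of 15 such gained contacts were called in H9 (13.3%, 3.74 to 37.9).

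**Figure D5:**
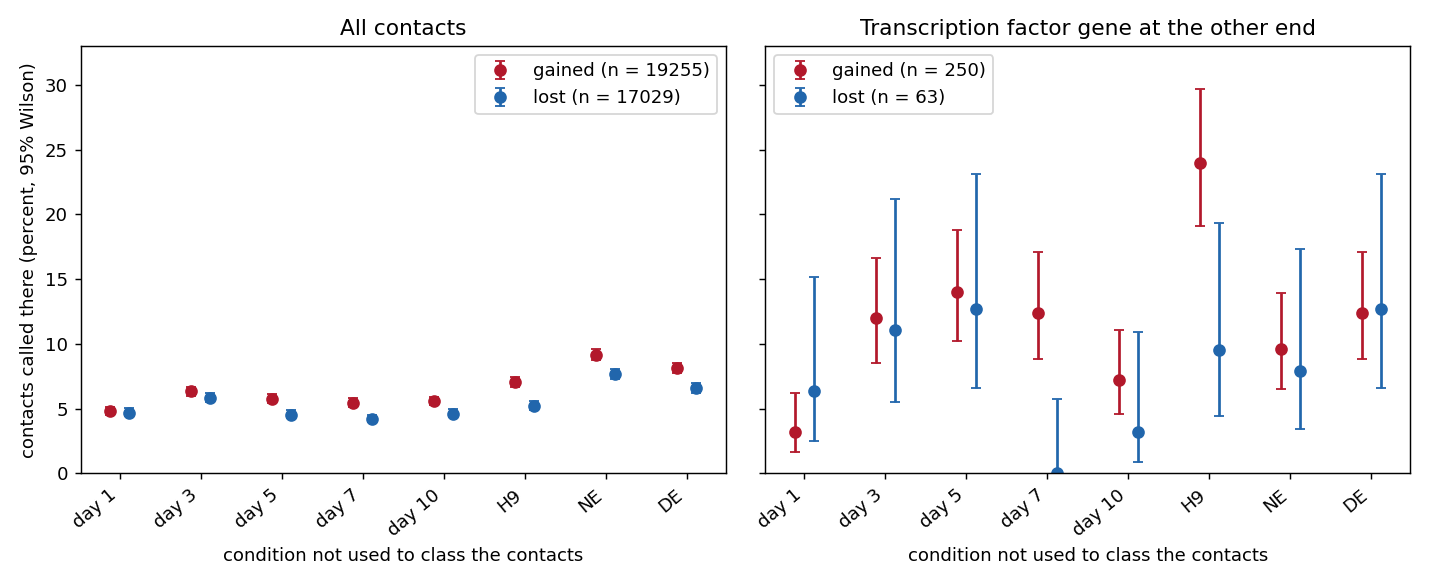
The y axis gives the share of gained (red) and lost (blue) contacts that were called in each of the 8 conditions not used for the classes (x axis), with 95% Wilson intervals, for all contacts on the left and for those with a transcription factor gene at the other end on the right. On the right the gained contacts lie at 24.0% in H9 and 3.20% at day 1.

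Contacts between 2 baits are listed from both ends, so pairs were counted once. Called pairs numbered 245 at day 14 and 99 in naive cells, with 237 gained, 91 lost and 8 kept, and 226 against 99 with equal numbers of rows. Of the gained pairs 15 were called in H9 (6.33%, 3.87 to 10.2) and of the lost 1 (1.10%, 0.194 to 5.96). Over all contacts the shares were 7.06% of gained and 5.24% of lost, and both lie within the intervals of the pairs. Gained pairs spanned a median of 199 kb and lost pairs 247 kb. At a score of 10 or more both states had 7 pairs.

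The strongest single contacts within 2 Mb, chosen after their scores were seen, were spread over other genes. A bait inside FOXP4 and a fragment 160 kb away scored 17.5 at day 14 and 4.21 in naive cells. A bait inside AKAP12, a scaffold of protein kinase A, and a fragment inside MTHFD1L scored 15.7 at day 14 and 0.934 in naive cells, with 6.58 in H9. Among the lost, a bait inside GLIS1 scored 3.33 at day 14 and 16.9 in naive cells, and a bait 6.78 kb from BMP4, a ligand of mesoderm and trophoblast development, scored 3.97 at day 14 and 14.7 in naive cells. Among the kept, a bait at SH3PXD2A scored 16.8 at day 14 and 17.1 in naive cells, although day 1 gave 1.06 and day 10 gave 2.26. A bait at MEIS2, a TALE homeobox factor, scored 13.5 in both states and 1.03 at day 1, so kept contacts were not always called in between.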

How the data were processed

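Poised Enhancer Capture Hi-C was made from genomic DNA of 20 libraries of 10 conditions, and 4 libraries (2 of day 14 cells, 2 of naive cells) form the comparison. The deposited file held 1 CHiCAGO interaction score per contact and condition, which pooled both libraries per the labels, with 0 columns unmatched. The deposited scores were used as given and were not rescaled, and the deposited distance column, in bp, was used as well. The lowest maximum score of a listed contact was 5.00. Coordinates were on GRCh38 per the submitters' processing notes. The aligner, the caller's version, the binning and the depth are not given in the sources used here.

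Contacts with both ends on 1 chromosome were called at a score of 5 or more and classed as gained, lost or kept. Genes (19946 protein-coding, RefSeq, GRCh38.p14) were linked by either annotated end within an interval widened by 1 kb, and 15760 had a start site in the promoter table. The comparison, the 22 gene lists and the naming rule were chosen with earlier results of these data known. Named were the 10 genes and baits with the largest gain and loss, 3 genes per list, 6 windows each way, and the strongest contacts. The text gives a part. Genes within 10 kb of far ends, genes with contacts called in H9 and strong contacts within 2 Mb were chosen after their values were seen. So were the promoters with the largest change, taken outside chromosomes 8 and Y and the mitochondrial genome. With 1 pooled value per state no test was run. The classing and linking were tested on simulated data. Alternatives were a score of 10, equal numbers of top-scoring rows, a margin, no bait-to-bait rows, single counting of pairs, nearby other ends and other gene links. The scripts ran under Python 3.11.15, with tables in pandas 2.3.3, arrays in numpy 2.4.6, intervals from scipy 1.17.1 and plots from matplotlib 3.10.9.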

Additional observations from a re-analysis of the deposited data

Results flagged for a closer look

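Contacts between chromosomes lay outside the comparison, and signal was present in them. At a score of 5 or more, 31432 were called at day 14 and 29766 in naive cells, more than the 20498 and 18272 called within chromosomes. The cause was not tested. With 1 value per state, single samples could not be set against their group.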

How the results depend on the processing

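No paired analysis was possible because the deposited file pools both libraries of a condition into 1 score, and for the same reason no library could be left out. Depth is unknown, so scores of both states were compared as deposited. Of 104 values recomputed under 11 alternatives, 71 stayed within 1.5 times a count or within the interval of a share, and 33 did not.

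At a score of 10 or more there were 420 calls at day 14 and 335 in naive cells, with 368 gained, 283 lost and 52 kept. Then 312 baits had more and 236 fewer contacts at day 14, as did 111 and 78 genes and 6 and 1 HOX genes, with 7 pairs of baits in each state. Of gained contacts 10.3% and of lost 8.48% then reached 10 in H9, and with a transcription factor gene at the other end 13.3% (2 of 15) and 0 (0 of 1). Fewer contacts pass this threshold by construction.

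With equal numbers of rows 7.44% of gained contacts were called in H9, and 2 windows had 20 or more contacts fewer at day 14. Baits with fewer contacts at day 14 (6621) then outnumbered those with more (6419). Leaving out contacts between baits gave 1 such window. Where the other state had to score under 3, 5.59% of gained and 3.84% of lost contacts were called in H9. With other ends within 10 kb taken as shared, 2457 day 14 contacts were kept.

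Without widening, 1812 genes had more and 1350 fewer contacts at day 14, with 5 HOX genes fewer. With the gene at the other end these were 1845 and 1319 genes. With start sites (added after seeing the data, as were the list without HOX genes, the shares at transcription factor genes and the window counts) 1724 genes had more and 1366 fewer, 16 HOX genes had more, and 32.5% of gained contacts at transcription factor genes were called in H9. Without HOX genes 2.56% of the lost ones were.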

Other observations

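Genes outside the transcription factor lists also differed between the states. LAG3, an inhibitory receptor of T cells, had 14 contacts at day 14 and 1 in naive cells, from 2 baits, and 2 in H9 and 22 in NE. Its gained scores ran from 5.01 to 7.71 at day 14 and from 0.457 to 4.34 in naive cells. PHC2, a subunit of Polycomb complex PRC1, had 10 contacts at day 14 and 3 in naive cells, from 1 bait, with 0 at days 5 and 10 and 5 in H9. BMI1, of the same complex, had 7 at day 14 and 1 in naive cells, but 1 in each state when a link required the start site. EZH1, also in the Polycomb list, went the other way, with 1 at day 14 and 3 in naive cells. FZD7, with 10 at day 14 and 4 in naive cells, had 21 in H9, 23 in NE and 37 in DE. FZD8, of the same receptor list, had fewer at day 14, with 4 against 7 in naive cells. WNT6, a WNT ligand, had 6 at day 14 and 1 in naive cells.

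Some developmental genes had fewer contacts at day 14. NEUROD1, a proneural factor, had 0 at day 14 and 5 in naive cells, with 1 at day 1, 2 at day 3 and 0 in H9. SOX10, a factor of neural crest, had 0 at day 14 and 4 in naive cells, all from 1 bait. SNAI2, a factor of migrating neural crest, had 0 at day 14 and 4 in naive cells, but 7 at day 10, 6 in H9 and 11 each in NE and DE, so its count at day 14 was the lowest of the 10 conditions.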
